A study of Homo sapiens with 32 samples.

Results

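Described here are 9 genes of the ubiquitin ligase machinery that small-molecule degraders use: CRBN, DDB1, CUL4A, CUL4B, RBX1, UBE2G1, UBE2D3, CAND1 and VHL. They were chosen by symbol and not by a rule on their values, though with earlier results of these data known. All 9 are among the 18980 coding genes listed in every library. RNA-seq of total RNA came from RH4, an established human alveolar rhabdomyosarcoma cell line. Cells were treated with 1 of 4 compounds (A485, dCBP, IHK-44, JQAD) aimed at the acetyltransferases CBP and p300, at 100 nM or 1 uM for 2 h or 6 h. These 16 treated libraries were set against 2 libraries of the solvent DMSO, at 2 h and 6 h, and 2 of NT, an abbreviation left unexplained in the labels, at the same times. Each condition had 1 library of 1 cell line. The libraries of each compound, 4 over its doses and times, therefore took the place of replicates, and the p-values measure the spread among them. The series also lists 11 ChIP-seq samples and 1 ChRO-seq sample, which were not analysed here.

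As background, cereblon (CRBN) is the substrate receptor of a cullin-RING ubiquitin ligase. It docks on the adaptor DDB1, DDB1 is held by the scaffold CUL4A or its relative CUL4B, and the scaffold's other end carries the RING protein RBX1, which brings in a ubiquitin-loaded E2 enzyme. UBE2D3 belongs to the E2 family that attaches the initial ubiquitin, and UBE2G1 extends the chain on CRBN's targets. CAND1 removes a substrate receptor from a cullin so that another can take its place, and a cullin is switched on by attachment of the ubiquitin-like protein NEDD8. VHL is the substrate receptor of a different ligase, built on CUL2, and is the other receptor that degraders most often recruit. A degrader joins a ligand of its target to a ligand of a receptor such as cereblon, whereas A485 is known as an inhibitor of CBP and p300 catalysis. Published degraders with names close to dCBP and JQAD recruit cereblon. The labels do not give the ligase that any compound of this series uses, and protein was not measured here.

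The series is concerned with CpG islands, so promoters are shown with every CG dinucleotide in capitals. The RefSeq window (GRCh38.p14) runs from 250 bases before to 50 bases after a gene's outermost start, and was found for 8 of the 9 genes. The sequences below, 5′ to 3′ on the coding strand, belong to CRBN, UBE2D3 and RBX1. CRBN (chr3:3179668-3179967, minus strand) is the receptor. UBE2D3 (chr4:102868846-102869145, minus strand) and RBX1 (chr22:40951128-40951427, plus strand) differed among the compounds. VHL also differed among the compounds, and is the gene for which no window was found.
CRBN: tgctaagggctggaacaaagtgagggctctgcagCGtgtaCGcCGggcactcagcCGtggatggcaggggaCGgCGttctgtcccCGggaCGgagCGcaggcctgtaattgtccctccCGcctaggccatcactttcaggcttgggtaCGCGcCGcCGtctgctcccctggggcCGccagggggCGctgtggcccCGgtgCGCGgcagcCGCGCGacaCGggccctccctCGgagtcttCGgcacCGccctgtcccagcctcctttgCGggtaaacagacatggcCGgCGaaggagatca
UBE2D3: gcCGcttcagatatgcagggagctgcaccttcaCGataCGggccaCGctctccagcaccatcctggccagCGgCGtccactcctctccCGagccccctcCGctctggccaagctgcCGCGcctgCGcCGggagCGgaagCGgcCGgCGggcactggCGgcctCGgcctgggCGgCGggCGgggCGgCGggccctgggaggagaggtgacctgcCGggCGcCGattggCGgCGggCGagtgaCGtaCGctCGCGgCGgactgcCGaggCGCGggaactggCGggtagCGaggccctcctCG
RBX1: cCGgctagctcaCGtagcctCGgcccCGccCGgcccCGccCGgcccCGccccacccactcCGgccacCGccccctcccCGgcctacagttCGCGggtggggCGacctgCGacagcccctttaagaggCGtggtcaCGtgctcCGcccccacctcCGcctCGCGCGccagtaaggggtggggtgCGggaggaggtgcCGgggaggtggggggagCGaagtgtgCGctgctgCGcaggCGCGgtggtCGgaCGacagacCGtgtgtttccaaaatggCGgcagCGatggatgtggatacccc
The UBE2D3 window held 40 CG dinucleotides, more than 89.9% of the windows of 13050 coding genes with one. RBX1 had 34 (above 78.9%) and CRBN 29 (above 66.5%), against a median of 22. Among the other windows the number was 38 for DDB1, 33 for UBE2G1, 24 for CAND1, 20 for CUL4A and 8 for CUL4B, the lowest of the 8. The windows of UBE2D3 and RBX1 were thus both CG-rich. So were those of DDB1 and UBE2G1, for which no difference among the compounds was found. The GC box GGGCGG, searched on both strands, was in 7 of 8 windows and in 59.6% of all coding windows. The cAMP response element TGACGTCA was in 0 of 8 (2.79% of all), and its part TGACG was in UBE2D3 alone (30.6% of all). The ETS core CCGGAA was in CUL4B alone (23.5% of all), and GCATGCGC, part of the NRF1 site, in 0 of 8 (4.51% of all). Such matches are letters in a window and not sites of binding. Starts other than the outermost were not examined for any of the genes, and CRBN and UBE2D3 have further RefSeq starts.

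Libraries held 13466631 to 16799327 counts in coding genes. Reads outside coding genes made up 5.63% to 6.43% in the 4 controls, 4.64% to 6.37% with A485, 5.72% to 7.46% with JQAD, 8.2% to 9.58% with IHK-44 and 8.36% to 11.27% with dCBP. The library of 100 nM dCBP at 6 h stood apart: relative to DMSO, its median log2 ratio was 0.40 over 1475 genes shorter than 1500 bases and -0.15 over 842 genes longer than 8000 bases. For dCBP, calls of the 9 genes are given with and without it. All 9 muscle-lineage and fusion-related marker genes of this tumour type were expressed, at a summed 3230 to 3490 CPM (reads of a gene per fixed total of coding reads) in controls and 3340 to 3750 with JQAD, and with lower sums of 1970 to 3160 (A485), 1610 to 2700 (dCBP) and 1510 to 2790 (IHK-44). The part of these marker sums and of the reads outside coding genes in the results below was not tested. The 8 markers of blood, epithelial, endothelial and fibroblast cells summed to 2.05 to 5.81 CPM over all libraries, EPCAM was at 0, and the highest, DCN, ran from 1.62 to 4.87 CPM. RNA of the proteins aimed at was not called with any compound: EP300 differed by 0.40 ± 0.13 (log2, SE) with A485 (adjusted p = 0.135) and CREBBP by 0.32 ± 0.12 (adjusted p = 0.170, edgeR).

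Levels between genes were compared as TPM, which accounts for transcript length, within the same libraries. UBE2D3, the E2 enzyme, was the most abundant at 113 ± 4.85 TPM (SD, n = 4 control libraries), above 97.1% of coding genes. The adaptor DDB1 followed at 86.1 ± 6.15 TPM, then the exchange factor CAND1 at 75.7 ± 4.41 and VHL at 45.0 ± 3.99. The ranges of these 4 genes did not overlap each other in the controls, nor that of VHL with the next gene. RBX1 (24.1 ± 2.91 TPM), CUL4A (23.5 ± 3.89), CUL4B (20.2 ± 1.82), CRBN (17.2 ± 2.02) and UBE2G1 (17 ± 0.718) formed a lower tier in which each neighbouring pair of ranges overlapped. RBX1 was above CUL4A in 2 of 4 controls, and CRBN above UBE2G1 in 2 of 4. Even the lowest, UBE2G1, was above 75.2% of coding genes. CRBN was thus near the bottom of its own complex: its 2 DMSO libraries held 18.4 and 15.3 TPM and its 2 NT libraries 19.5 and 15.8, against 94.9 and 81.8 TPM for DDB1 with DMSO. VHL stood 2.44 to 2.85 times above CRBN in TPM in the controls. The TPM of a coding gene also moves with the other rows of a library, since coding rows held from 27.9% to 53.9% of all TPM.

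**Figure D1:**
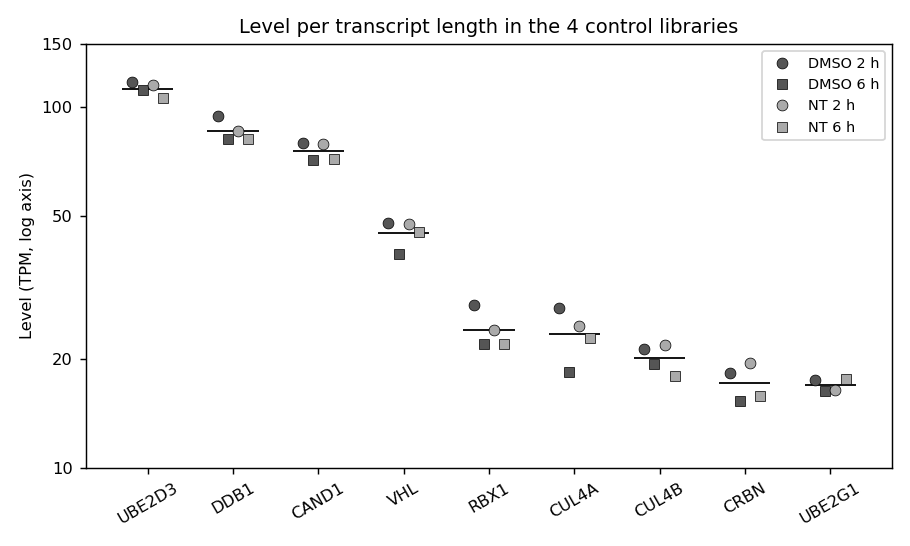
Level of each gene in TPM (log axis) in the 2 DMSO and 2 NT libraries, as points, with the mean as a line and squares for 6 h. UBE2D3, DDB1, CAND1 and VHL stand above the other 5 genes, in which each neighbouring pair of ranges overlaps.

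For one gene between libraries, CPM was used, and changes were fitted with edgeR on counts with TMM scaling, compound by compound against DMSO with a term for time. Genes called changed have a Benjamini-Hochberg adjusted p under 0.05 over all 13260 genes tested. CPM ratios are not on the scale of the fitted changes, since the median gene's log2 ratio to DMSO in CPM was 0.04 to 0.22 with IHK-44, 0.06 to 0.21 with dCBP, 0.03 to 0.14 with A485 and -0.03 to -0.01 with JQAD. Of the 9 genes, 2 were called with dCBP (VHL higher, UBE2D3 lower), 1 with IHK-44 (VHL higher), 0 with A485, 0 with JQAD and 0 with NT. Over all genes the test called 23.7% with dCBP (11.8% higher and 11.8% lower), 16.9% with IHK-44 (7.74% higher, 9.21% lower), 0.271% with A485, 0% with JQAD and 0% with NT. The shares among the 9 were therefore near the background. With A485, 1 of the 9 had an unadjusted p under 0.05, beside 2533 of all 13260 genes. With JQAD and NT 0 of the 9 had, beside 143 and 104 of all genes. DESeq2 called 1 with A485 (VHL), 0 with JQAD and 0 with NT. The median fitted log2 change of the 9 was -0.09 (A485), -0.19 (dCBP), -0.09 (IHK-44) and -0.05 (JQAD), beside 0.01, 0.05, 0.04 and -0.002 over all genes.

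**Figure D2:**
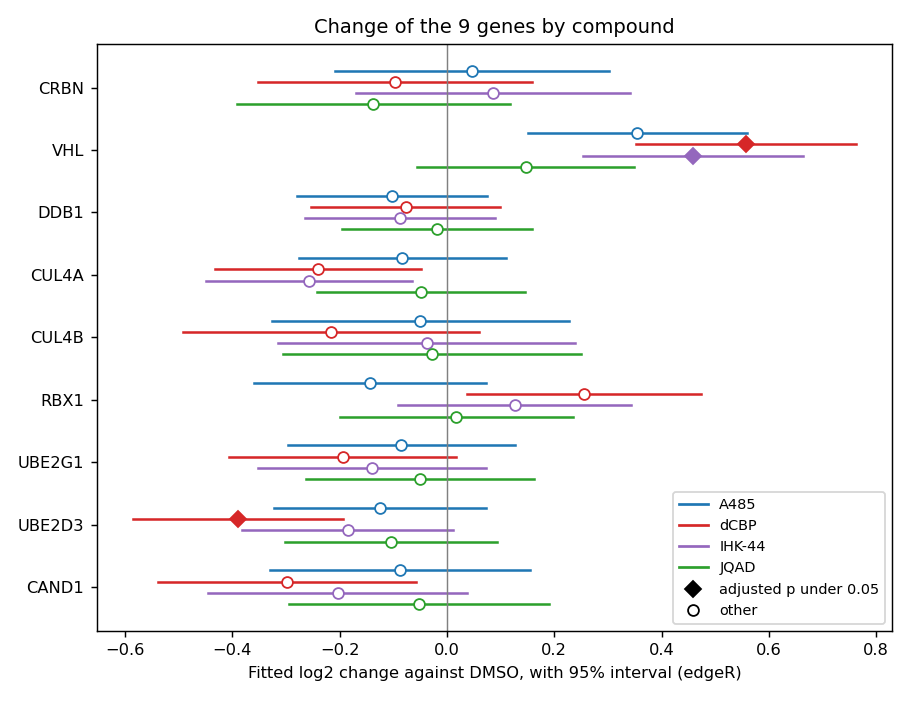
Fitted log2 change of each gene against DMSO for each compound (edgeR, 4 libraries per compound), with 95% intervals; filled diamonds mark an adjusted p under 0.05. VHL lies to the right of 0 with each compound and is called with dCBP and IHK-44, and UBE2D3 is called with dCBP.

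CRBN, the receptor, was not called with any compound. DMSO held 37.8 CPM at 2 h and 36.6 at 6 h, and NT 41.1 and 38.5. With A485 CRBN was at 40.5 and 43.95 CPM at 1 uM (2 h and 6 h) and at 36.8 and 40.1 at 100 nM. With IHK-44 it was at 43.3 and 44.1 CPM at 1 uM and 39.6 and 44.02 at 100 nM. These 8 libraries overlapped the controls or lay just above them. With JQAD it was at 34.5 and 31.2 CPM at 1 uM and 32.6 and 36.7 at 100 nM, all but 1 of them below each control. With dCBP it was at 38.4 and 41.9 CPM at 1 uM, 41.6 at 100 nM for 2 h, and 28.3 at 100 nM for 6 h, the lowest of the 20 libraries. The fitted log2 change was 0.05 with A485 (95% interval -0.21 to 0.30, adjusted p = 0.855), -0.10 with dCBP (-0.35 to 0.16, 0.566), 0.09 with IHK-44 (-0.17 to 0.34, 0.643) and -0.14 with JQAD (-0.39 to 0.12, adjusted p = 1). Without the dCBP library at 100 nM and 6 h, the dCBP value was 0.02, and over all its alternatives the adjusted p ran from 0.252 to 0.983. For the average over a compound's doses and times, a change in CRBN RNA beyond about 0.4 (log2) lies outside these intervals. They do not bound a single condition. With 100 nM dCBP at 6 h the log2(CPM + 1) ratio of CRBN to DMSO was -0.36, where the median gene was at 0.16. The 95% counting error of a single log2 ratio of CRBN was 0.16 to 0.19. The gene overlaps TRNT1 on the genome, and whether the counting used strand is not given in the sources used here.

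VHL, the receptor of the CUL2 ligase, was the member that moved most. DMSO held 194 CPM at 2 h and 182 at 6 h, and NT 193 and 205. With dCBP, VHL was at 258 CPM (2 h) and 352 (6 h) at 1 uM, and at 269 and 330 at 100 nM. With IHK-44 it was at 250 and 337 CPM at 1 uM, and at 234 and 314 at 100 nM. All 8 of these libraries, and the 4 of A485 (249 and 313 CPM at 1 uM, 222 and 236 at 100 nM), lay above the 4 controls. The JQAD libraries overlapped the controls, at 196 and 222 CPM at 1 uM and 208 and 208 at 100 nM. VHL rose by 0.56 ± 0.10 (log2, SE) with dCBP, a 1.47-fold change (edgeR adjusted p = 0.00244). It rose by 0.46 ± 0.10 with IHK-44, or 1.37-fold (edgeR adjusted p = 0.00761). With A485 the fitted value was 0.36 ± 0.10, which missed the threshold (adjusted p = 0.0899), and the calls by DESeq2 (adjusted p = 0.0442) and with the DMSO and NT libraries pooled (0.0229) passed it, in a range of 0.0229 to 0.791 over all its alternatives. With JQAD it was 0.15 (95% interval -0.06 to 0.35, adjusted p = 1).

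DMSO at 6 h had the lowest VHL of all libraries. Without it, fewer genes of any kind were called: 0.873% of all genes with dCBP and 0.925% with IHK-44. VHL was not among them. Its dCBP value was then 0.41 (adjusted p = 0.119) and its IHK-44 value 0.31 (adjusted p = 0.2803), over ranges of 3.1e-05 to 0.119 and 0.00105 to 0.2803 for their alternatives. With the NT libraries in place of DMSO VHL was still called with dCBP and IHK-44, where 23.3% and 18.8% of all genes were. Without the dCBP library that stood apart the dCBP value was 0.55 (adjusted p = 0.00601).

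**Figure D3:**
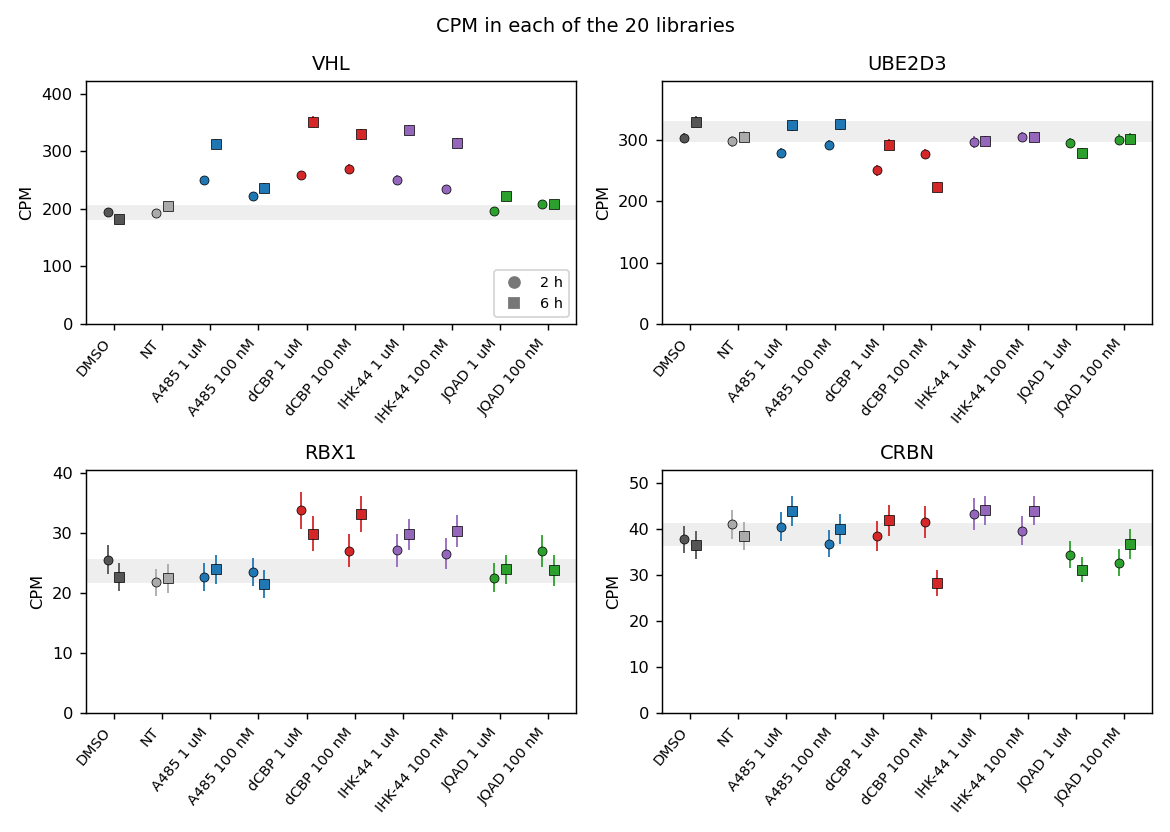
CPM of VHL, UBE2D3, RBX1 and CRBN in each library (circles 2 h, squares 6 h), with 95% Poisson counting error as bars and the range of the 4 controls in grey. VHL lies above the controls in all libraries of A485, dCBP and IHK-44, and the lowest CRBN and UBE2D3 values are in 100 nM dCBP at 6 h.

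UBE2D3, an E2 of the initial ubiquitin transfer, fell with dCBP. DMSO held 303 CPM at 2 h and 330 at 6 h, and NT 297 and 305. With dCBP UBE2D3 was at 250 and 292 CPM at 1 uM (2 h and 6 h) and at 277 and 224 at 100 nM, all 4 below each control. The other compounds overlapped the controls, at 278 to 325 CPM with A485, 296 to 304 with IHK-44 and 278 to 302 with JQAD. UBE2D3 fell by 0.39 on the log2 scale with dCBP (SE 0.09, edgeR adjusted p = 0.0108), a fold of 0.764. Without the library at 100 nM and 6 h it still passed (fall of 0.31, adjusted p = 0.0185), and without DMSO at 6 h, where 0.873% of all genes were called, it did not (-0.32, adjusted p = 0.209, the highest of its alternatives, which began at 0.00126). DMSO at 6 h had the highest UBE2D3 of all libraries. UBE2D3 overlaps other annotated transcripts including the antisense gene UBE2D3-AS1 and has 5 pseudogenes in RefSeq, so reads could be divided among them. UBE2G1, the chain-extending E2, ran from 61.9 to 75.6 CPM over all 20 libraries, a 1.22-fold range, and was called in no comparison. Its fitted log2 change against DMSO was between -0.19 (dCBP) and -0.05 (JQAD), each with an interval that includes 0. Its course over time with IHK-44, also not called, is given below.

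RBX1, the RING subunit, was the short member (1169 bases). Controls held 25.5 and 22.6 CPM with DMSO and 21.7 and 22.4 with NT, at 2 h and 6 h. With dCBP RBX1 was at 33.8 and 29.9 CPM at 1 uM and 27.02 and 33.2 at 100 nM, and with IHK-44 at 27.1 and 29.8 at 1 uM and 26.6 and 30.4 at 100 nM. These 8 libraries lay above all controls, whereas A485 (21.5 to 23.9 CPM) and JQAD (22.5 to 26.99 CPM) overlapped them. Against DMSO the fitted log2 change was 0.26 with dCBP (95% interval 0.04 to 0.47, adjusted p = 0.0768) and 0.13 with IHK-44 (-0.09 to 0.34, adjusted p = 0.398), and neither was called. The dCBP value passed in 3 of 7 other settings and in 1 of 20 fits with a library left out. In the same libraries the median log2 ratio over genes shorter than 1500 bases was -0.08 to 0.09 (A485), 0.05 to 0.40 (dCBP), 0.14 to 0.31 (IHK-44) and -0.06 to 0.09 (JQAD). A fit corrected for this trend is given with the pairs of compounds. Copies of the gene, RBX1P1 and RBX1P2, could also take some of its reads.

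**Figure D4:**
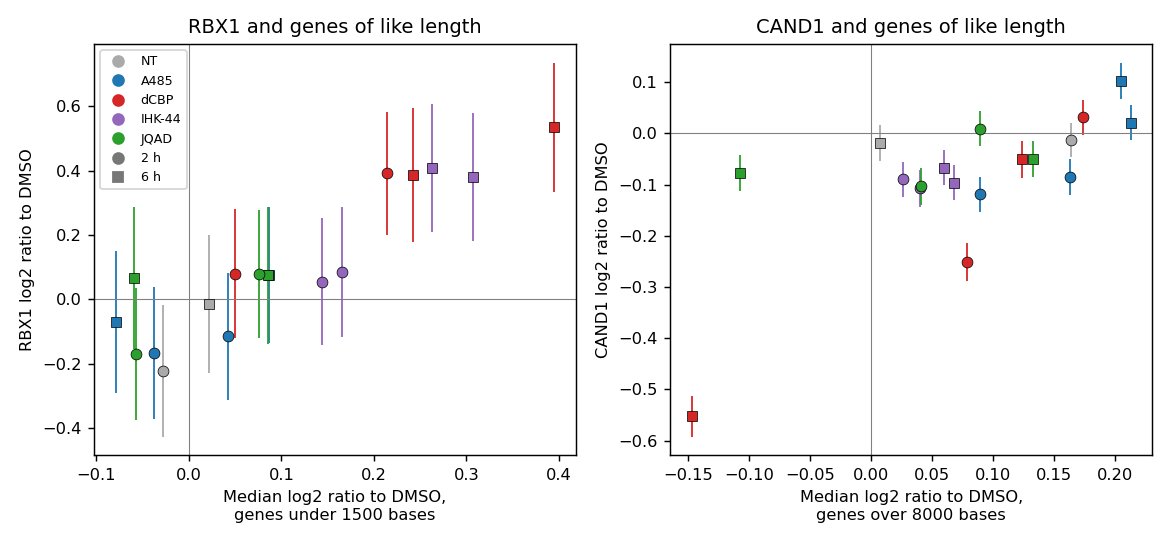
Left, log2(CPM + 1) ratio of RBX1 to DMSO of the same time against the median ratio of genes under 1500 bases in that library; right, CAND1 against genes over 8000 bases (bars, 95% counting error). RBX1 is highest and CAND1 lowest in 100 nM dCBP at 6 h, where the medians are 0.40 and -0.15.

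CAND1, the exchange factor, is the longest member (11176 bases). It was at 849 and 870 CPM with DMSO and 841 and 859 with NT, a spread of 1.45% (coefficient of variation), the smallest of the 9. With dCBP it was at 713 and 839 CPM at 1 uM and at 868 and 593 at 100 nM, the last in the library that stood apart. IHK-44 gave 788 to 830 CPM, below all controls, A485 782 to 935 and JQAD 790 to 854. The fitted log2 change was -0.30 with dCBP (95% interval -0.54 to -0.06, adjusted p = 0.0641) and -0.20 with IHK-44 (-0.45 to 0.04, adjusted p = 0.211). With dCBP, CAND1 passed in 3 of 7 other settings: DESeq2, the pooled controls and the correction for the length trend. It passed in 1 of 20 fits with a library left out.

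The scaffold CUL4A was at 83.9 and 77.1 CPM with DMSO and 77.8 and 81.7 with NT. IHK-44 gave 74.1 and 68.4 CPM at 1 uM and 76.5 and 72.4 at 100 nM, all below the controls, and dCBP gave 68.4 to 79.8. CUL4A had a fitted log2 change of -0.24 with dCBP (adjusted p = 0.0624) and -0.26 with IHK-44 (adjusted p = 0.0591), just short of the threshold. It passed in 4 of 7 other settings for each compound, DESeq2 among them. With limma, without the filter and with NT in place of DMSO it did not pass. With a library left out it passed in 2 of 20 fits for dCBP and 6 of 20 for IHK-44. Its relative CUL4B was at 104 to 111 CPM in controls and at 83.5 and 131 CPM with 1 uM dCBP at 2 h and 6 h. With 100 nM dCBP CUL4B was at 114 and 79.7 CPM, so that the dCBP libraries spanned its highest and lowest values. The CUL4A to CUL4B ratio in TPM was 0.953 to 1.3 in controls and 0.693 to 1.58 with dCBP. CUL4A overlaps PCID2, and its transcript-weighted length moved between 3256 and 4194 bases over the libraries, which enters its TPM. DDB1, the adaptor, ran from 334 to 369 CPM in controls and from 332 to 433 over all 20 libraries, the highest in 100 nM dCBP at 6 h. It was called in no comparison, with fitted log2 changes of -0.10 with A485 (95% interval -0.28 to 0.07) and -0.08 with dCBP (-0.25 to 0.10).

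Counting the members whose 4 libraries of a compound all lay outside the range of the 4 controls in CPM gave 1 of 9 for A485 (VHL), 3 for dCBP (VHL, RBX1, UBE2D3), 4 for IHK-44 (VHL, RBX1, CUL4A, CAND1) and 0 for JQAD. Over the 12174 genes with a mean of at least 1 CPM the same held for 18.3%, 31.3%, 35.4% and 1.84%. The members' shares lie near those of all genes.

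The 4 compounds were compared with each other in 1 F-test, which called 3 of the 9 genes: VHL (adjusted p = 0.00695), RBX1 (0.0125) and UBE2D3 (adjusted p = 0.0327), beside 29.6% of all genes. In the 6 pairs of compounds, p-values were adjusted over genes within a pair. Between dCBP and JQAD, VHL was 0.41 ± 0.08 higher with dCBP (log2, edgeR adjusted p = 0.00161), RBX1 0.24 ± 0.08 higher (0.0351) and UBE2D3 fell by 0.29 relative to JQAD (SE 0.08, adjusted p = 0.0108), in a pair where 35.3% of genes were called. CAND1 missed the threshold there (adjusted p = 0.05003). Without 100 nM dCBP at 6 h, 27.5% of genes were called in this pair. VHL (0.40, adjusted p = 0.00496) and UBE2D3 (-0.21, adjusted p = 0.0291) passed, and RBX1 (0.20, adjusted p = 0.0844) did not. Without that library the F-test called CRBN, RBX1 and VHL, and no longer UBE2D3. The 27.5% is the share of the pair, and that of this F-test is not given here. CRBN passed the F-test in 1 of 20 fits with a library left out and in 0 of 5 other settings. Between IHK-44 and JQAD (32.5% of genes called), VHL was 0.31 ± 0.08 higher (adjusted p = 0.00801) and CUL4A fell by 0.21 (SE 0.08, adjusted p = 0.0416). The CUL4A call was lost in 6 of 20 fits with a library left out and with limma, where the value was -0.09 (adjusted p = 0.238, the highest of its alternatives, which began at 0.0165). Between A485 and dCBP (0.724% called), RBX1 was lower with A485, with a fitted log2 difference of -0.40 ± 0.08 (adjusted p = 0.0360), which was not called without 100 nM dCBP at 6 h (-0.36, adjusted p = 0.132). With a correction for the length trend the value was -0.24 and was no longer called (adjusted p = 0.129), and RBX1 was not called between dCBP and JQAD either (0.13, adjusted p = 0.130). Over their alternatives the adjusted p of these RBX1 differences ran from 0.00412 to 0.157 and from 0.00779 to 0.130.

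No member was called between A485 and IHK-44 (0.882% of genes), between A485 and JQAD (4.91%) or between dCBP and IHK-44 (0%). DESeq2 called 0 in each of these pairs. Unadjusted p-values under 0.05 numbered 2, 1 and 1 of 9, beside 2302, 3427 and 883 of all 13260 genes. The interval of the CRBN difference was -0.25 to 0.17 between A485 and IHK-44, -0.03 to 0.39 between A485 and JQAD, and -0.39 to 0.03 between dCBP and IHK-44. Between IHK-44 and JQAD, CRBN was 0.22 higher with IHK-44 (interval 0.01 to 0.43) and was not called (edgeR adjusted p = 0.0926). That CRBN difference passed in 1 of 20 fits with a library left out and in 1 of 5 other settings. For VHL the interval was -0.06 to 0.26 between dCBP and IHK-44 and -0.27 to 0.06 between A485 and IHK-44, so neither pair was shown to differ or to be alike in VHL.

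Across all libraries, VHL was higher at 6 h than at 2 h by 0.16 ± 0.05 (log2, edgeR adjusted p = 0.0156) and CUL4A was lower by a fitted -0.12 ± 0.05 (adjusted p = 0.0487), 2 of 9 beside 38.3% of all genes (18.6% higher, 19.7% lower). VHL kept its call in all 20 fits with a library left out, and CUL4A in 3 of 20. The rise of VHL was not in each group. VHL went from 194 to 182 CPM with DMSO and was level with 100 nM JQAD (208 and 208), and it was higher at 6 h in the other pairs of libraries. Set against the change over time in DMSO and NT, the 6 h against 2 h difference of VHL was larger by 0.18 for A485 (95% interval -0.13 to 0.48, adjusted p = 0.717), 0.27 for dCBP (-0.03 to 0.57, 0.267), 0.31 for IHK-44 (0.01 to 0.61, 0.197) and 0.07 for JQAD (adjusted p = 1), none of them called. None of the 9 genes was called for a different course over time with A485, dCBP, IHK-44 or JQAD, where 0.00754%, 7.56%, 8.24% and 0% of all genes were. With IHK-44, 2 of the 9 (UBE2G1 and VHL) had an unadjusted p under 0.05, beside 3069 of all 13260 genes. With A485, dCBP and JQAD 0 of the 9 had, beside 1135, 3154 and 202 of all genes. The largest of these time differences was that of UBE2G1 with IHK-44, -0.38 (95% interval -0.69 to -0.07, edgeR adjusted p = 0.1215). DESeq2 called 0 for each compound. For dCBP, leaving out the 1 uM library at 6 h made CRBN, UBE2D3 and CAND1 pass, beside 15.7% of all genes, a fit in which the dCBP library that stood apart was the lone one at 6 h.

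Dose called no member in the fits of all 16 treated libraries. For the dose effect of dCBP, CUL4B passed in 2 of 16 fits with a library left out and in 0 of 5 other settings. Between 1 uM and 100 nM, over the 4 compounds together, VHL differed by 0.07 (95% interval -0.03 to 0.18, edgeR adjusted p = 0.919) and CRBN by 0.06 (-0.10 to 0.22, adjusted p = 0.990), and 0% of all genes were called. By compound, 0 of 9 were called with A485 (0.929% of genes), dCBP (0%), IHK-44 (0.107%) and JQAD (0%). DESeq2 also left these dose fits at 0 calls. An unadjusted p under 0.05 was found for 0 of 9 in any of them, beside 150 (dCBP) to 1394 (A485) of all 13137 genes. The largest member values were VHL with A485 (0.22, interval -0.01 to 0.45, adjusted p = 0.514) and CRBN with dCBP (0.20, interval -0.16 to 0.56).

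Other parts of the ubiquitin system were read from fixed lists. Of 25 further components and receptors of CUL4 ligases, 2 rose and 3 fell with dCBP, and 1 rose and 2 fell with IHK-44, with list medians of -0.07 and 0.04 (log2) beside 0.05 and 0.04 for all genes. CAND2, a relative of CAND1, rose by 0.59 ± 0.18 with dCBP and by 0.54 ± 0.18 with IHK-44 (edgeR adjusted p = 0.0275 and 0.0463). DCAF15 and DCAF16 are receptors that other degrader compounds use: with dCBP DCAF15 rose by 0.43 and DCAF16 fell by 0.41 (edgeR adjusted p = 0.0414 and 0.0339). DCAF17 fell with dCBP (-0.42), DCAF6 with IHK-44 (-0.58), and DCAF5 with dCBP (-0.25) and IHK-44 (-0.24). Of 21 genes of NEDD8 attachment and removal, 3 rose and 0 fell with dCBP: DCUN1D2, which helps to attach NEDD8 to cullins (0.60 ± 0.13, adjusted p = 0.00708), its relative DCUN1D3 (0.36), and COPS9, a subunit of the complex that removes it (0.50 ± 0.16, adjusted p = 0.0355). With IHK-44 0 of the 21 were called.

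Of 17 other cullin ligase genes, SKP2 and CUL3 fell with dCBP (-0.89 and -0.32) and with IHK-44 (-0.77 and -0.31), and FBXO22 and CUL9 rose with dCBP (0.47 and 0.40, edgeR). Of 17 E1 and E2 genes, UBE2E1 and UBE2N fell with dCBP (-0.65 and -0.28), and UBE2D4, a relative of UBE2D3, rose with IHK-44 (0.75 ± 0.22, adjusted p = 0.0298). Of 21 genes whose proteins are known to be degraded through cereblon in the presence of its ligands, 16 could be tested: 4 rose and 1 fell with dCBP and 1 rose with IHK-44. The largest were ZNF692 (0.71) and IKZF4 (0.56), higher, and ZNF827 (-0.47), lower, with dCBP, and ZBTB39 rose with both (0.42 and 0.45), as did E4F1 with dCBP (0.41). DCAF5 with dCBP, DCUN1D3, E4F1 and ZBTB39 with dCBP were added to complete the counts after their values were seen. Of 9 genes for other ligases used by degraders, AHR fell with dCBP (-1.57 ± 0.30, adjusted p = 0.00358) and IHK-44 (-1.45 ± 0.29, adjusted p = 0.00579), and so did MDM2 (-0.45 and -0.39), while KLHL20 rose (0.37 and 0.54). Of 32 proteasome genes PSMA3 fell with dCBP (-0.26 ± 0.09, adjusted p = 0.0413) and 0 were called with IHK-44. With A485, JQAD and NT, 0 genes of any of these lists were called. The lists' shares are to be read beside the 23.7% and 16.9% of all genes called.

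Likeness of pattern was Pearson's r of log2(CPM + 1) over the 20 libraries, among 9575 genes with a mean of at least 10 CPM. The libraries share controls, depth and the length trend, and r is given as a description. CRBN (2398 bases) was closest to TPR (0.91), DIS3 (0.91) and ZNF92 (0.90), with 9636, 10543 and 3038 bases. VHL (4411 bases) was closest to ADI1 (0.97), DNAJC9 (0.97) and NCEH1 (0.97), with 2222, 2295 and 4533 bases. RBX1 was closest to COX8A (0.95), RPL38 (0.94) and RPL36 (0.94), each no longer than RBX1 itself. CAND1 was closest to IL6ST (0.97), PCGF5 (0.96) and IPO7 (0.95), with 6008 to 9016 bases. UBE2D3 (2905 bases) was closest to TMED7 (0.94), KPNA3 (0.93) and KIF2A (0.92), with 3918, 4186 and 7712 bases. CUL4B followed DPY19L4 (0.93), CNIH1 (0.93) and ORC4 (0.92), CUL4A followed SMARCC1 (0.91), NUP153 (0.90) and ZBTB2 (0.90), and DDB1 followed DMAC2 (0.92), CCAR2 (0.91) and FKBP9 (0.91). UBE2G1 had the loosest likeness, to ELOVL5 (0.77), PHF10 (0.76) and RAB28 (0.75).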

How the data were processed

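The 20 RNA-seq libraries of RH4 cells were used. The submitters' processing notes name STAR 2.5.3a, RSEM 1.3.3 and the build hg38, without their roles, and per the file headers the authors kept coding genes. The expected counts (estimated reads per gene), TPM and FPKM were deposited by the authors, and the deposited CPM column equals expected counts scaled to a fixed total over coding genes. FPKM was used only to find the share of reads outside coding genes. For tests, expected counts were rounded and fitted with edgeR 4.0.16 (R 4.3.3), quasi-likelihood, TMM and filterByExpr, Benjamini-Hochberg adjusted, in fits of compound and time (13260 genes, 13 residual degrees of freedom), of time per compound (9), and of dose in the 16 treated libraries (13137 genes, 7, or 4 per compound). The fits were tested on simulated data. Single-library ratios used log2(CPM + 1). Alternatives used DESeq2 1.42.0, limma 3.58.1, other scaling, no filter, other controls, each library left out, and a length offset, chosen after seeing the data. Named genes were the 9 members, up to 2 called rises and 2 called falls per list with dCBP and IHK-44, the 3 closest patterns per member, EP300 and CREBBP. The members and lists were chosen with earlier results of these data known. Promoters came from RefSeq tables (GRCh38.p14). Precision of single values was taken as 95% Poisson error, which covers counting only.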

Additional observations from a re-analysis of the deposited data

Results flagged for a closer look

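The fitted change differed among the 4 compounds in 3 of the 9 genes, beside 29.6% of all genes. The test was edgeR's F-test with each compound's 4 libraries as the group. For VHL the adjusted p was 0.006954, with means of 255 (A485), 302 (dCBP), 284 (IHK-44) and 209 CPM (JQAD). For RBX1 it was 0.01249, with means of 22.9, 31.0, 28.5 and 24.3 CPM in the same order. For UBE2D3 it was 0.03272, with means of 305, 261, 301 and 294 CPM. VHL and RBX1 kept this call in all 20 fits that left out a library. UBE2D3 lost it in 6 of them, and with limma. RBX1 lost it with the length offset.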

How the results depend on the processing

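Numbers of members called under other settings were as follows. The share of all genes called is in brackets for each setting named. For ranges over fits with a library left out, it is given only where a fit is named. For 6 h against 2 h the count was 1 with DESeq2's size factors (38.4%), without the filter (28.2%) and with limma (40.4%). For A485 it was 1 with DESeq2 (2.9%) and with DMSO and NT pooled (6.7%). For dCBP it was 3 with DESeq2's size factors (23.6%), limma (27.7%) and NT in place of DMSO (23.3%), 4 with DESeq2 (26.7%) and the length offset (25.8%), and 5 with the pooled controls (41.1%). For IHK-44 it was 2 with DESeq2's size factors (17.4%), DESeq2 (21.3%), the pooled controls (35.4%) and the length offset (18.4%). Leaving out each library in turn gave 1 to 2 for 6 h against 2 h, 0 to 1 for A485, 0 to 5 for dCBP, 0 to 2 for IHK-44, 2 to 5 for the difference among compounds, 0 to 1 for the dose effect of dCBP and 0 to 3 for its time dependence. The 0 for dCBP and IHK-44 came without DMSO at 6 h (0.873% and 0.925%), and the 5 without 100 nM dCBP at 2 h (29.3% for dCBP, 35.9% for the difference among compounds). A fit without a DMSO library assumes that the remaining one varies like the other groups. The fitted CRBN change was -0.04 for A485 with NT in place of DMSO and, for dCBP, ran from -0.162 to 0.024 as libraries were left out, the latter without 100 nM dCBP at 6 h. The values -0.04 and 0.024 are opposite in sign to the values reported, and neither was called. The causes were not tested. Of 144 single-library ratios, a pseudocount of 0.1 moved 0 beyond counting error, NT as control 33 and TPM 122. No block of replicate numbers was fitted, since the labels give none, and time was a term of the fits.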

Other observations

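The transcript-weighted mean length of CRBN was 2012 bases in the library of 100 nM dCBP at 6 h and up to 2553 bases in the others, with 2356 to 2470 in controls. VHL stood above CRBN in TPM by 3.33 to 4.97 times with dCBP, 3.00 to 3.98 with IHK-44, 3.11 to 3.75 with A485 and 2.85 to 3.78 with JQAD.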
